A study of Mus musculus with 6 samples.

Results

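Glycogen metabolism genes were followed through an ATAC-seq comparison of mouse livers, as 9 genes with 16 peaks among the 22412 peaks of the deposited table. ATAC-seq maps open chromatin by letting a transposase cut and tag accessible DNA. The members were chosen by gene symbol: Gys2, Gyg, Gbe1, Pgm1, Pgm2 and Gsk3a act in or on glycogen synthesis, and Ppp1r3b, Ppp1r3c and Ppp1r3g carry a phosphatase to glycogen. The control group was 3 liver samples labelled with an adenovirus for EGFP, a green fluorescent protein (Ad-EGFP). The other group was 3 liver samples labelled with an adenovirus for the kinase Dyrk1b (Ad-Dyrk1b), so both groups carried a virus. The labels give no strain, sex, age, dose or time, and leave it unsaid whether replicates came from separate animals, so a p-value speaks only for the variation among these 6 samples, some of it possibly technical. Whole liver was used, and fewer hepatocytes and less open chromatin per hepatocyte cannot be told apart.

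Liver stores glucose as glycogen after a meal and releases it between meals. Phosphoglucomutase turns glucose 6-phosphate into glucose 1-phosphate and back, glycogenin (Gyg) starts a new chain, glycogen synthase (Gys2 in liver) lengthens it, and the branching enzyme (Gbe1) adds branch points. The kinase GSK3 (Gsk3a) switches the synthase off by phosphorylation, and protein phosphatase 1, held on glycogen by its PPP1R3 subunits, switches it on and the phosphorylase off. Open chromatin at a gene does not measure its RNA or its enzyme, and neither was measured here.

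The libraries held 762633 to 1267934 reads in peaks, of which 542 to 1005 lay in the 16 peaks, and a single peak held 2 to 172 reads in a library. Levels are CPM, reads scaled to the reads of a library in the tested peaks after TMM normalisation, and a log2 change is Dyrk1b over control. Coordinates are as deposited, from a build that the table does not name, and a peak's position is given as the distance of its middle from the start of its gene. Of the 16 peaks, 10 lay within 3 kb of the start of their gene and are called promoter peaks, at least 1 for each gene, and the other 6 lay farther inside the gene. Liver identity could be read only in part, since 4 of 8 hepatocyte marker genes had a peak, among them the albumin gene Alb and Hnf4a, and none of 4 cholangiocyte markers did. The overexpressed gene was higher in the libraries labelled Dyrk1b at its exon 9 and exon 11 peaks. The exon 9 peak held 5.66 ± 5.44 CPM in the EGFP group against 36.5 ± 3.86 CPM (SD, n = 3 per group). The exon 11 peak held 11.2 ± 0.806 CPM against 34.9 ± 7.74 CPM, and edgeR did not call it (adjusted p = 0.107). Reads of a viral cDNA could also lie in these exons.

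The promoters that the results turn on are shown first, because the peaks of Gbe1, Pgm1, Pgm2 and Gsk3a all reach across the start of the gene. Each is the 250 bases before the RefSeq start in GRCm38.p6, written 5′ to 3′ on the strand of the gene, at chr16:70313699-70313948 (plus strand), chr4:99929201-99929450 (plus), chr5:64092689-64092938 (plus) and chr7:25237852-25238101 (minus). RefSeq's table matched 7 of the 9 genes. The peaks reach 166, 209, 306 and 1041 bases before the deposited start, which need not be the RefSeq base, so at Gbe1 and Pgm1 they cover part of the 250 bases. Capitals mark the matches to the motifs searched.
Gbe1: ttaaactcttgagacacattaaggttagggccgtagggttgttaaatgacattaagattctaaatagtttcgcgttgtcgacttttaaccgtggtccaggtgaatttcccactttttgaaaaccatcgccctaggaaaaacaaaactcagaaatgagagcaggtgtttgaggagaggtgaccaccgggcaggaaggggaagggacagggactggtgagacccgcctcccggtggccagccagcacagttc
Pgm1: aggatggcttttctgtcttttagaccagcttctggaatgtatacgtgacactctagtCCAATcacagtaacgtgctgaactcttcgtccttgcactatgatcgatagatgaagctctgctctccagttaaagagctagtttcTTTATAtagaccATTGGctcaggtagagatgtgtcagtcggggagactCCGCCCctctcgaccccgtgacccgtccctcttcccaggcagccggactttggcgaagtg
Pgm2: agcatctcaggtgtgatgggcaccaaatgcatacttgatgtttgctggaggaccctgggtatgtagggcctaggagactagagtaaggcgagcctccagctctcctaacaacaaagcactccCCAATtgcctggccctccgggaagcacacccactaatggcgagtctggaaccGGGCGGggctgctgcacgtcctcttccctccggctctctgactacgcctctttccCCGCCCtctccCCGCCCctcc
Gsk3a: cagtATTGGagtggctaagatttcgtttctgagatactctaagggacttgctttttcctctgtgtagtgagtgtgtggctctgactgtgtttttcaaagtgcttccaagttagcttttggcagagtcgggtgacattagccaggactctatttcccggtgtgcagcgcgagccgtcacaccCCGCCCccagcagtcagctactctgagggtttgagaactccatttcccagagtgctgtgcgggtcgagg

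Motifs were searched on both strands as TATAAA (core promoter box), CCAAT (the box bound by NF-Y), CACGTG (known as the E-box), TGACGTCA (a cAMP response element), GGGCGG (a GC box), CCGGAAG (an ETS site), AGGTCA (a nuclear receptor half-site) and the NRF1 motif. The Gbe1 stretch held none of the 8. Pgm1 held 1 match to TATAAA, 2 CCAAT boxes and 1 GC box, Pgm2 held 1 CCAAT box and 3 GC boxes, and Gsk3a held 1 of each of these 2. Among 32851 RefSeq promoter windows of the same length, 12.4% held TATAAA, 33.8% CCAAT and 32.7% GGGCGG. The other 5 motifs were found in none of the 4 promoters and in 6.02%, 1.55%, 6.91%, 14.0% and 0.782% of all windows, in the order given above. The GC content was 48.8% at Gbe1, 50.4% at Pgm1, 60.4% at Pgm2 and 52% at Gsk3a, against a median of 52.4% over all windows. A match describes the letters only and shows no bound factor.

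Before any comparison of groups, the promoters differed in how open they were. Per kilobase of peak, the control level was highest at Gbe1 (173 ± 14.3 CPM per kb, SD, n = 3), followed by Gsk3a (144 ± 35.2), the first Pgm1 peak (136 ± 9.72), Ppp1r3b (124 ± 12.6), the second Pgm1 peak (120 ± 19.2) and Ppp1r3c (113 ± 25.6). Gys2 stood at 94.4 ± 2.45, Ppp1r3g at 80.3 ± 10.9, Pgm2 at 71.3 ± 25.4 and Gyg at 64.9 ± 8.75 CPM per kb. In this order each neighbouring pair differed by less than the larger of its SDs, except Gys2 and Ppp1r3g. Averaged over the 6 libraries, Gbe1 was at the 97.7th percentile and Gsk3a at the 95.2nd percentile of 9716 promoter peaks per kilobase, whereas Gys2 was at the 55.7th and Gyg at the 16.3rd. With Dyrk1b the promoters of Ppp1r3b (115 ± 15.7), Gsk3a (108 ± 13.5) and Gbe1 (102 ± 18.6) had the highest levels per kilobase, and Gyg (65.6 ± 19.0) again the lowest.

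**Figure D1:**
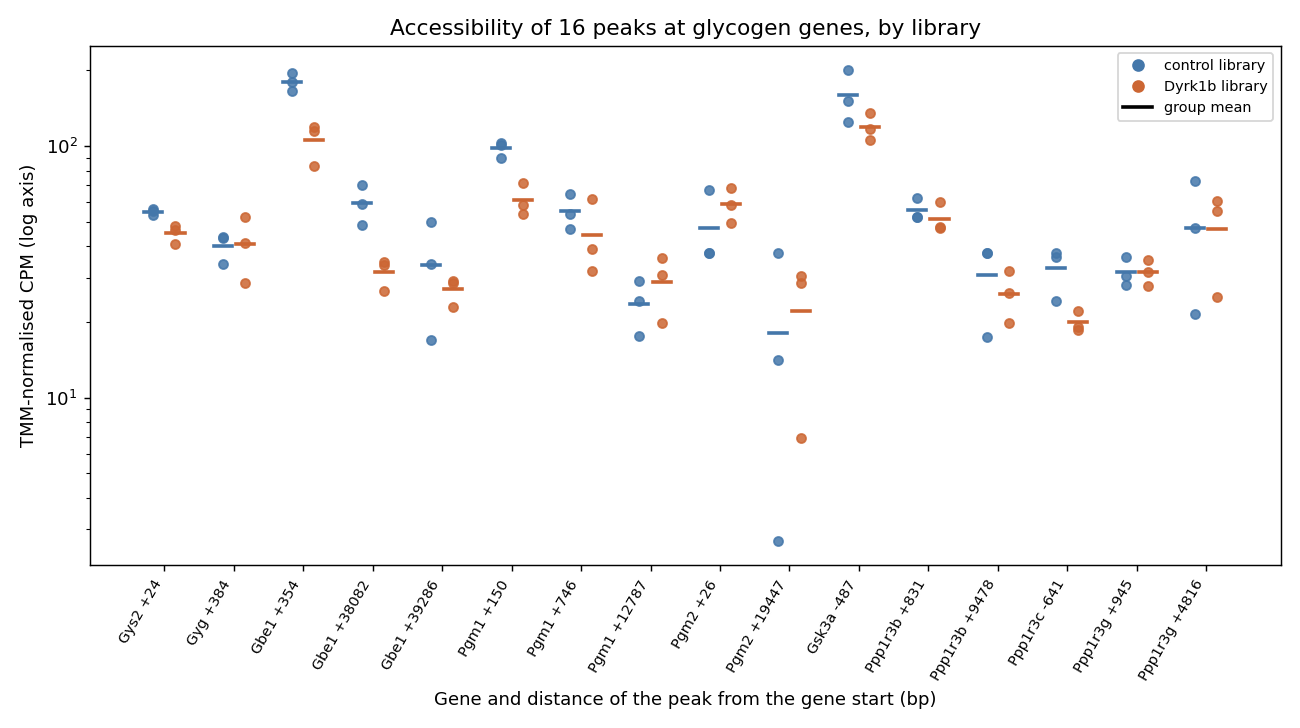
TMM-normalised CPM (log axis) of the 16 peaks in each library, ordered by gene and labelled by the distance of the peak from the gene start in bases. Blue points are the 3 control libraries, orange points the 3 Dyrk1b libraries and bars the group means. At 5 peaks, of Gys2, Gbe1 (2 peaks), Pgm1 and Ppp1r3c, all orange points lie below all blue points.

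Chromatin at Gbe1, the glycogen branching enzyme gene, fell with Dyrk1b when the reads of its 3 peaks were summed. The summed level was 314, 255 and 334 CPM in control libraries 1, 2 and 3, and 165, 190 and 198 CPM in Dyrk1b libraries 1, 2 and 3. Every Dyrk1b library was below every control library. The log2 change was -0.70 ± 0.15 (SE; 95% interval -0.99 to -0.41), with an adjusted p of 0.0163 over all 10609 genes tested in the same way with edgeR's quasi-likelihood test. It was 1 of 21 genes called, or 0.198% of those tested, and the only one of the 9 members. DESeq2 called it as well, with an adjusted p of 0.012. The edgeR call was lost on leaving out control 1 (-0.66, adjusted p = 0.0623), control 3 (-0.62, 0.114), Dyrk1b 1 (-0.63, 0.0574), Dyrk1b 2 (-0.72, 0.0573) or Dyrk1b 3 (-0.76, 0.117). It was also lost when libraries were scaled to the deposited RPKM totals (-0.55, 0.73) and when the fit held replicate number as a block.

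The largest part of these reads came from the Gbe1 promoter peak (gene ENSMUSG00000022707, chromosome 16, 70110671 to 70111712, labelled intron 1 of 15, 354 bases after the start). It held 154, 136 and 145 reads in controls and 63, 104 and 155 in Dyrk1b libraries, which is 181, 165 and 195 CPM against 83.6, 115 and 119 CPM. Dyrk1b 1 was the lowest library, and the groups did not overlap. The mean of controls was 180.2 ± 14.9 CPM and that of Dyrk1b libraries 106 ± 19.3 CPM (SD, n = 3 per group), 0.593 of the control level by the fitted change of -0.76 ± 0.21. By edgeR its adjusted p over all 22051 tested peaks was 0.122, above the threshold of 0.05. By DESeq2 the adjusted p was 0.0493, but over a smaller set of peaks. DESeq2 gave no adjusted p for 16245 of the tested peaks, so the 2 values are not adjusted alike.

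Inside the long first intron of Gbe1 lay another pair of peaks, 792 bases apart. The nearer one (70148657 to 70149182, 38082 bases from the start) held 70.3, 48.6 and 59.2 CPM in controls and 34.5, 26.5 and 33.8 CPM with Dyrk1b. The groups did not overlap here either, and the log2 change was -0.91 ± 0.28 (adjusted p = 0.167 over all peaks by edgeR). At the farther one (70149974 to 70150272, 39286 bases from the start) the controls spread from 17.0 to 49.7 CPM and enclosed the Dyrk1b values of 23.0 to 29.2 CPM. Its log2 change was -0.32 ± 0.35, and it was 0.06 without control 3. No peak of another gene was tested within 1 Mb of the Gbe1 peaks, so the table gives no neighbours to set beside them.

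The phosphoglucomutase gene Pgm1 (ENSMUSG00000025791) had a lower promoter level with Dyrk1b that did not pass the test. Its first peak (chromosome 4, 99786402 to 99787121, labelled 5′ UTR, middle 150 bases after the start) held 103, 101 and 90.1 CPM in controls and 58.4, 71.7 and 53.7 CPM in Dyrk1b libraries. The lowest control thus stood above the highest Dyrk1b library. The log2 change was -0.69 ± 0.23 (95% interval -1.13 to -0.24, adjusted p = 0.188 by edgeR and 0.147 by DESeq2).

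A second Pgm1 promoter peak began 7 bases after the first (99787128 to 99787587, intron 1 of 10). There the groups overlapped, at 46.9, 64.4 and 53.8 CPM against 31.8, 61.7 and 39.2 CPM. Its log2 change was -0.31 ± 0.27, and -0.14 without Dyrk1b 1 or -0.61 without Dyrk1b 2. The third Pgm1 peak (99799288 to 99799509, intron 1, 12787 bases from the start) leaned the other way, with 23.6 ± 5.80 CPM in controls, 28.8 ± 8.16 CPM with Dyrk1b and a log2 change of 0.28 ± 0.37 that ran from 0.10 (without control 1) to 0.48 (without Dyrk1b 2) with 1 library left out. Summed over its 3 peaks, Pgm1 held 185, 215 and 185 CPM in controls and 141, 171 and 139 CPM with Dyrk1b, with no overlap and a log2 change of -0.37 ± 0.16 (adjusted p = 0.248 over all genes by edgeR).

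Pgm2 (ENSMUSG00000029171), which encodes the related enzyme with phosphopentomutase activity, leaned higher at its promoter (chromosome 5, 64249987 to 64250651, labelled 5′ UTR, 26 bases after the start). Controls held 37.5, 66.8 and 37.6 CPM and Dyrk1b libraries 58.4, 49.6 and 68.3 CPM. Control 2 lay among the Dyrk1b libraries, so the groups overlapped, and the log2 change of 0.32 ± 0.27 did not pass (95% interval -0.21 to 0.85, adjusted p = 0.584 by edgeR). It was 0.65 without control 2 and 0.17 without control 1. The Pgm2 peak in intron 12 of 13 (64269600 to 64269881) held 12, 31 and 2 reads in controls and 23, 26 and 9 with Dyrk1b, which is too few and too uneven to show a change (log2 change 0.20 ± 0.52, 95% interval -0.83 to 1.23). Without control 2 it was 1.29 and without control 3 -0.29.

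Ratios of reads within a library do not depend on how the libraries are scaled, and 3 were taken after the values above had been seen. The first Pgm1 peak held 2.75, 1.51 and 2.39 reads per read of the Pgm2 promoter in controls and 1, 1.44 and 0.787 with Dyrk1b. The groups did not overlap, and on the log2 scale the mean ratio was 1.10 ± 0.45 in controls and 0.06 ± 0.44 with Dyrk1b, a difference of -1.04. The exact two-sided permutation test gave p = 0.1, the smallest that 3 against 3 samples allow, and 0.3 after adjustment over the 3 ratios. The adjustment does not cover the choice of the pairs from values already seen. The ratio therefore restates the changes given above and is no separate support for them. The ratio of the first to the second Pgm1 peak overlapped between the groups (difference -0.33, exact permutation p = 0.3, adjusted 0.3), and so did the ratio of the Gbe1 promoter to the farther Gbe1 intron peak (difference -0.59, exact permutation p = 0.3, adjusted 0.3). Leaving out 1 library moved the last of these to between -0.88 (without control 3) and -0.23 (without control 2), and that of the Pgm1 peaks to between -0.51 (without Dyrk1b 1) and -0.18 (without Dyrk1b 2).

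**Figure D2:**
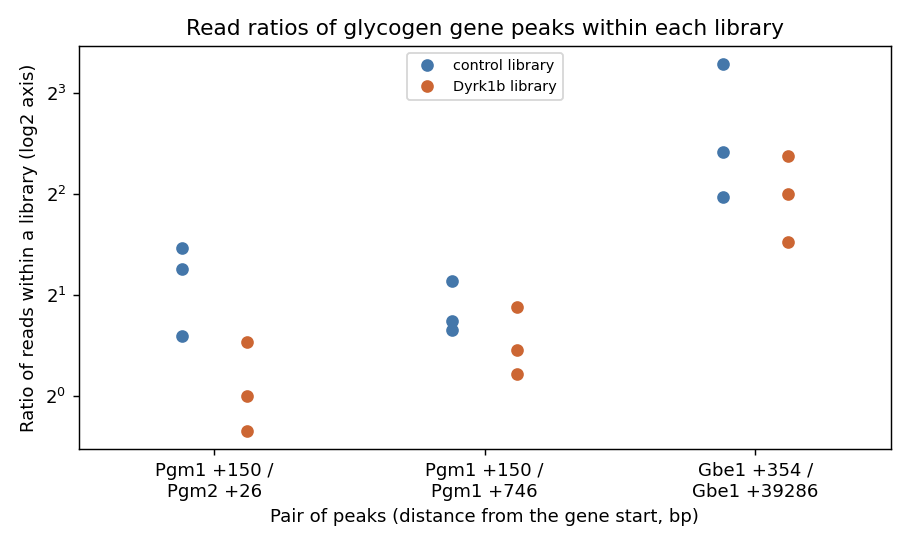
Ratio of reads at pairs of peaks within each library (log2 axis), with the 3 control libraries in blue and the 3 Dyrk1b libraries in orange. The first pair, Pgm1 against Pgm2, has no overlap between the groups (controls 1.51 to 2.75, Dyrk1b 0.787 to 1.44), and the other pairs overlap. The pairs were chosen after the values of the single peaks had been seen.

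At the gene of the liver glycogen synthase the difference was small. The Gys2 promoter peak (ENSMUSG00000030244, chromosome 6, 142418520 to 142419102, labelled 5′ UTR, 24 bases after the start) held 56.3, 53.4 and 55.1 CPM in controls, the smallest SD in controls of the 10 promoter peaks (1.42 CPM), and 46.4, 40.8 and 48.4 CPM with Dyrk1b. All 3 Dyrk1b libraries were below all controls, whose 41 to 48 reads carry counting noise wider than the SD of 1.42 CPM. The log2 change of -0.28 ± 0.26 did not pass (95% interval -0.80 to 0.25, adjusted p = 0.639 by edgeR), and the interval holds both 0 and the value of -0.76 found at the Gbe1 promoter. With the deposited RPKM totals as the scaling it was -0.11.

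Glycogenin primes the chain, and its gene Gyg (ENSMUSG00000019528, chromosome 3, 20208787 to 20209407, intron 1 of 6, 384 bases after the start) held 34.0 to 43.7 CPM in controls and 28.7 to 52.2 CPM with Dyrk1b. The Dyrk1b libraries enclosed the controls, and the log2 change was 0.04 ± 0.29 (95% interval -0.55 to 0.62). It was -0.21 without Dyrk1b 3 and 0.24 without Dyrk1b 2. Gsk3a (ENSMUSG00000057177), the kinase gene, had the second highest control level per kilobase (chromosome 7, 24937210 to 24938317, 487 bases before the start), with 202, 151 and 125 CPM in controls and 106, 136 and 117 CPM with Dyrk1b. Control 3 lay within the Dyrk1b range, and control 1 was the highest library. The log2 change was -0.41 ± 0.21 (adjusted p = 0.357 by edgeR) and -0.21 without control 1.

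Of the phosphatase targeting subunits, Ppp1r3c (ENSMUSG00000067279, known as PTG) had lower values with Dyrk1b. Its single peak (chromosome 19, 36714549 to 36714839, 641 bases before the start) held 31, 31 and 18 reads in controls and 14, 20 and 25 with Dyrk1b, or 36.3, 37.7 and 24.2 CPM against 18.6, 22.1 and 19.2 CPM. The groups did not overlap, though the gap between control 3 and Dyrk1b 2 was small. The log2 change was -0.72 ± 0.37 (95% interval -1.45 to 0.02, adjusted p = 0.366 by edgeR), and the peak is 290 bases long against 1041 at the Gbe1 promoter.

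Ppp1r3b (ENSMUSG00000046794), the liver-enriched subunit known as GL, showed little difference at its promoter peak (chromosome 8, 35843500 to 35843949, labelled 5′ UTR, 831 bases after the start), where controls held 55.6 ± 5.66 CPM and Dyrk1b libraries 51.6 ± 7.05 CPM. The groups overlapped, and the log2 change was -0.12 ± 0.26 (95% interval -0.63 to 0.39). With 1 library left out it ran from -0.22 (without Dyrk1b 1) to -0.03 (without control 1). Its 3′ UTR peak (35852188 to 35852555) held 17.5 to 37.7 CPM in controls and 19.8 to 31.8 CPM with Dyrk1b, with a log2 change of -0.27 ± 0.36, which was -0.54 without control 3 and -0.11 without control 1. Ppp1r3g (ENSMUSG00000050423), a subunit linked to glycogen storage after feeding, had a promoter peak (chromosome 13, 36143571 to 36143964, intron 1 of 1, 945 bases after the start) of 31.6 ± 4.28 CPM in controls and 31.5 ± 3.71 CPM with Dyrk1b. The log2 change there was 0.01 ± 0.33 (95% interval -0.65 to 0.66). The other Ppp1r3g peak (36147241 to 36148036, 4816 bases from the start) varied widely within both groups, from 21.5 to 72.7 CPM in controls and from 25.2 to 60.6 CPM with Dyrk1b. Its log2 change of 0.01 ± 0.30 was -0.32 without control 3 and 0.46 without control 1.

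**Figure D3:**
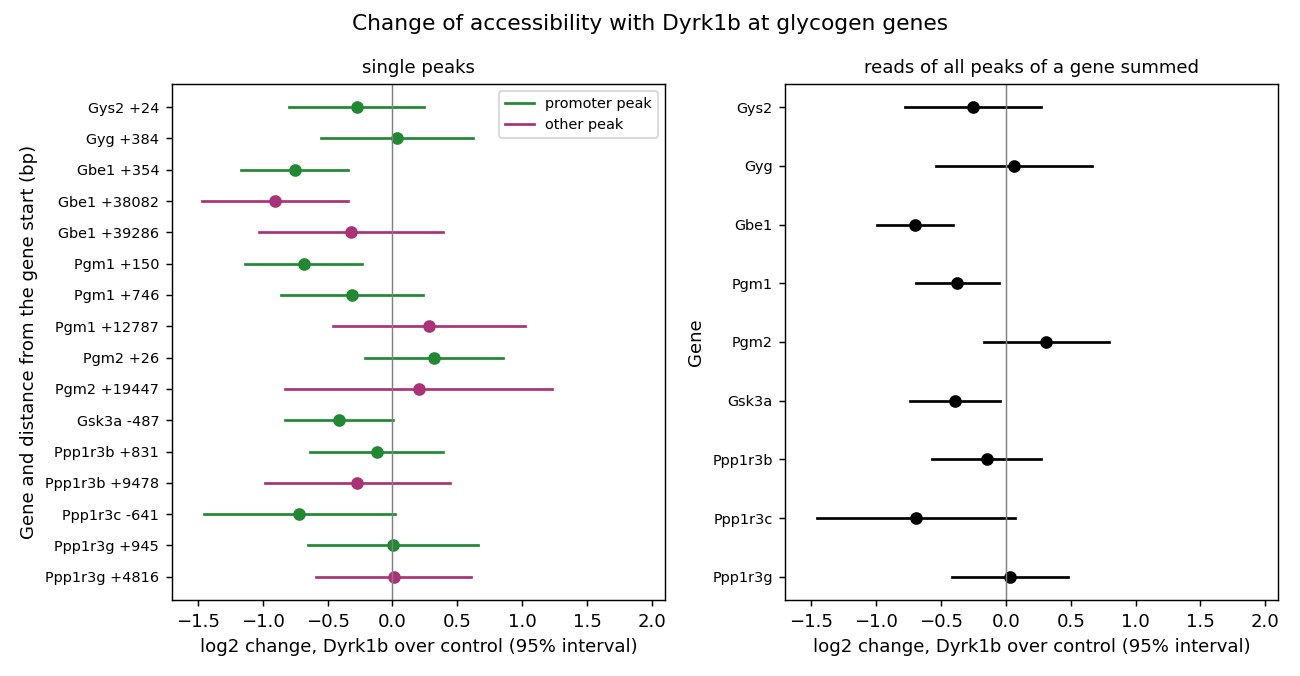
log2 change of accessibility (Dyrk1b over control) with its 95% interval, for the 16 single peaks on the left (promoter peaks green, other peaks purple) and for the reads of all peaks of a gene summed on the right. The intervals of Gbe1 (2 of 3 peaks and the sum) and Pgm1 (first peak and the sum) lie below 0. The summed interval of Gsk3a ends at -0.04. Gsk3a has a single peak, and the same reads fitted as a peak give an interval that ends at 0.002. Neither Gsk3a fit passed (adjusted p = 0.357 for the peak and 0.266 for the sum by edgeR).

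Counted over all 16 peaks, each of which passed the filter on low counts, edgeR called 0 and DESeq2 called 1, the Gbe1 promoter, with no adjusted p from DESeq2 for 11. Over the whole table edgeR called 0.0317% of the 22051 tested peaks. DESeq2 called 19 of these peaks and gave no adjusted p for 16245. At an unadjusted p under 0.05 by edgeR, 3 of the 16 were lower (2 of Gbe1 and 1 of Pgm1) and 0 higher, where 7.72% of all tested peaks were lower and 6.44% higher. The groups did not overlap at 5 of the 16 with Dyrk1b lower and at 0 with Dyrk1b higher, beside 9.97% and 9.53% of all tested peaks. Promoter peaks were less even over the whole table. Of the 9675 tested, 1143 had no overlap with Dyrk1b lower and 649 with Dyrk1b higher, beside 4 and 0 of the 10 promoter peaks of the members. In reads summed per gene, 4 of 9 genes (Gys2, Gbe1, Pgm1 and Ppp1r3c) had no overlap with Dyrk1b lower, beside 10.2% of all genes. The 9 genes were chosen with earlier results of these data known, so these counts are no independent support for a direction.

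By role, 5 of 7 promoter peaks of the synthesis genes were negative (median -0.31) and 2 of 3 of the targeting subunits (median -0.12). Over all 10 promoter peaks the median was -0.29, while the median of all 9675 promoter peaks tested was -0.07, with 56.9% negative. The 6 other peaks of the members had a median of -0.13, with 3 negative and 3 positive, against 0.08 for the other peaks of the table. With libraries scaled to the deposited RPKM totals, the promoter median of the members was -0.11 and that of all promoter peaks 0.10. That scaling moved the median of all peaks from 0.00 to 0.17. Among peaks with an unadjusted p under 0.05 by edgeR, the share of lower ones went from 54.5% to 13%. How far a member stands below 0 thus depends on the scaling. A change of library totals shifts all peaks nearly alike, so it cannot test whether the members' promoter median lies below that of all promoters.

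The rest of the pathway was read from a list that includes the breakdown side. Of 31 further genes of glycogen handling, 19 had a peak, and of their 37 tested peaks 22 were negative and 15 positive (median -0.06), with 0 called by edgeR, 0 by DESeq2 (no adjusted p for 23) and, at an unadjusted p under 0.05 by edgeR, 2 higher and 2 lower. Breakdown genes held 22 of these peaks (13 negative, median -0.05). Pygl, the liver phosphorylase that releases glucose units, had 55.5 ± 13.8 CPM in controls and 57.8 ± 0.551 CPM with Dyrk1b at its peak in intron 1 (log2 change 0.06 ± 0.25). Pygl was singled out after its value was seen.

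The lowest p among breakdown genes were at phosphorylase kinase, the enzyme that switches phosphorylase on. In intron 1 of Phkg1, a catalytic subunit better known from muscle, the peak 11449 bases from the start went from 30.9 ± 1.18 to 11.2 ± 1.69 CPM (log2 change -1.43 ± 0.44, adjusted p = 0.162 by edgeR) and the peak at 10920 bases from 29.1 ± 4.90 to 14.4 ± 1.44 CPM (-1.02 ± 0.42, 0.276). Neither passed, and neither group pair overlapped. The promoter of Phkb, the regulatory beta subunit, leaned the other way, from 46.7 ± 5.94 to 67.5 ± 16.6 CPM (0.53 ± 0.26, 0.345).

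Among other synthesis genes, 7 of 10 peaks were negative (median -0.08). The log2 change was -0.29 ± 0.35 in intron 8 of Pgm5, a phosphoglucomutase relative, and 0.28 ± 0.48 in intron 2 of Gsk3b, the other GSK3 gene. The muscle synthase gene Gys1, picked like Pygl after its value was seen, had -0.06 ± 0.25 at its promoter. Phosphatase subunits had 5 peaks (2 negative), with the 3′ UTR peak of the catalytic subunit Ppp1ca, which also overlaps the end of a neighbouring gene on the other strand, at 0.55 ± 0.25, the Ppp1ca promoter at 0.20 ± 0.22, and Ppp1cb at -0.27 ± 0.23 in intron 1 and -0.15 ± 0.21 at its promoter. None of these passed over all peaks by edgeR.

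**Figure D4:**
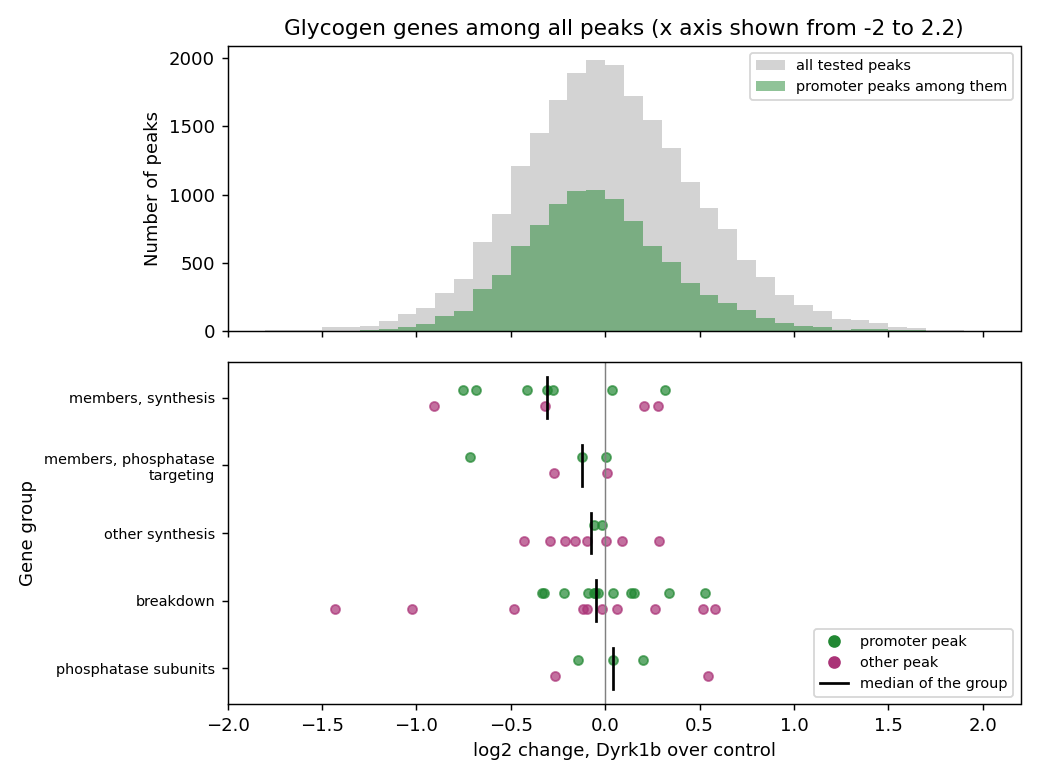
Upper panel, number of tested peaks by log2 change (Dyrk1b over control), all peaks in grey and promoter peaks in green. Lower panel, the log2 change of each peak of the glycogen genes by group, promoter peaks green and other peaks purple, with the group median as a bar (-0.31 for the synthesis members, -0.05 for breakdown genes).

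Marker genes of liver cell types were read as well. The 4 hepatocyte markers had 6 peaks, 5 of them negative (median -0.28, summed level 238 to 380 CPM in controls and 260.1 to 299.9 CPM with Dyrk1b), and of 9 peaks at 6 of 22 markers of other cells 7 were positive (median 0.67, summed level 300.04 to 352 CPM in controls and 352 to 400.3 CPM with Dyrk1b). Among the markers of other cells, the lymphocyte gene Ebf1 had the largest log2 change (1.37 ± 0.44). The lowest was -0.50 ± 0.21, at the intron 2 peak of the macrophage gene Spi1. Of all tested peaks that were not promoter peaks, 43.8% were negative (median 0.08). None of the marker peaks was called by edgeR or DESeq2. DESeq2 gave no adjusted p for 3 of the 6 hepatocyte peaks and 8 of the 9 others. Their part in the values at Gbe1, Pgm1 and the other glycogen genes was not tested.

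No FDR in the authors' deposited table is under 0.05. The authors' deposited table gives the Gbe1 promoter a log2 ratio of mean RPKM of -0.56 with an FDR of 0.521, the nearer Gbe1 intron peak -0.77 with 0.462, and the first Pgm1 peak -0.52 with 0.553. For the Pgm2 promoter the authors' deposited table gives 0.51 with an FDR of 0.618.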

How the data were processed

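ATAC-seq counts of 3 control and 3 Dyrk1b liver libraries were analysed. Per the file headers, the deposited table gives read counts per merged peak, RPKM values, the log2 ratio of the group means and a p-value and FDR from the authors. The deposited RPKM equal the reads over peak length and a library total of 38.05 to 48.3 M reads. The submitters' processing notes name Bowtie2, DiffBind, ChIPseeker and mm10. How peaks were called, duplicates handled and reads shifted was not given in the sources used here. Deposited gene starts do not match a GRCm38 gene table (3.38% of 10554 genes within 2 kb, 0 of 9 members). The deposited coordinates are therefore not on the mm10 (GRCm38) build that the notes name, and their build is not stated.

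The test was edgeR's (version 4.0.16, R 4.3.3) on counts (TMM, filterByExpr, which left 22051 peaks, quasi-likelihood test, Benjamini-Hochberg over all peaks, threshold 0.05), and again after summing the peaks of each gene. The SE is the absolute log2 change over the square root of F. CPM use the filtered library sizes, and those of summed reads are scaled over the gene table. The alternatives were DESeq2 1.42.0, limma-trend (limma 3.58.1), 4 other scalings, no filter, a replicate block and leaving out each library. No pair of libraries was alike within counting noise (lowest chi-square 2.18 per degree of freedom). The fit was tried on simulated counts with changes planted at 200 peaks. The planted changes were larger than those estimated at the members, and every peak had the same setting for its spread. That trial therefore cannot show how well changes of the members' size are found.

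Every peak of the 9 genes is named, and of each other pathway group the 4 peaks of lowest p, with Pygl and Gys1 outside this rule. Some peaks that the rule names are not reported here. The members and lists were chosen with earlier results of these data known.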

Additional observations from a re-analysis of the deposited data

How the results depend on the processing

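Peaks called over the table numbered 7, and 4 with library size only, 1 with the totals behind RPKM, 19 by DESeq2, 2 by limma-trend and 0 to 10 with 1 library left out. Among the 16 glycogen peaks 0 were called in each of these except by DESeq2 (1, the Gbe1 promoter at -0.75, adjusted p = 0.0493), and at the other pathway genes 0 under every alternative. Genes called on summed reads numbered 21, and 36 with loess offsets, 1 with the RPKM totals, 6 by DESeq2, 11 by limma-trend and 1 to 36 with 1 library left out. The promoter median of -0.29 was -0.19 with loess, -0.11 with the RPKM totals and -0.36 to -0.23 with 1 library left out. The Gbe1 promoter was negative under all 14 alternatives (adjusted p 0.0493 to 0.632), and summed Gbe1 was called under 7 of 14 and by 1 of 6 fits with a library left out (-0.80 to -0.62).

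These log2 changes, none of them called, changed sign. Gyg was -0.016 by limma-trend and -0.21 to 0.24 with a library left out (summed -0.19 to 0.26). The Pgm2 intron peak was -0.13 with loess and -0.29 to 1.29 with a library left out. The Ppp1r3b promoter was 0.020 with the RPKM totals. The Ppp1r3g promoter was -0.025 with loess and -0.074 to 0.115 with a library left out, and the other Ppp1r3g peak -0.0016 by DESeq2 and -0.32 to 0.46 (summed -0.14 to 0.28). The farther Gbe1 intron peak was -0.64 to 0.063 with a library left out. The causes were not tested.

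With the replicate block, 7 peaks and 5 genes on summed reads were called, summed Gbe1 had -0.70 (adjusted p = 0.0789), Gyg -0.0031 and the Ppp1r3g promoter -0.0020. Deviations of same-numbered libraries had r of -0.011, -0.013 and 0.0094 across peaks, which are not independent. Pairs with unlike numbers ran from -0.026 to 0.033. With few reads per peak, r cannot show whether same-numbered libraries share a batch, and the labels give only the number. Few reads per peak limit what single peaks can show.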
